A study of Mus musculus with 4 samples.

Results

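The genes described here encode the contractile apparatus, the calcium cycling proteins and the ion channels of the heart muscle cell, and the question was whether the haematopoietic transcription factor SCL (gene symbol Tal1) sat at these heart effector genes or only at the regulators above them. A set of 32 genes was used, and a binding region (peak) was given to one of them when the protein-coding transcription start site (TSS) nearest to its summit belonged to that gene. By this rule, 31 of the 12885 SCL peaks were given to 16 of the 32 genes, and the other 16 genes received none. A peak given to a gene in this way is a matter of position on the chromosome, and its effect on the gene was not measured.

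SCL binding was mapped by chromatin immunoprecipitation followed by sequencing (ChIP-seq) in FLK1+ mesoderm at day 3.5 of embryoid body culture, when wild-type mouse ES cells (strain C57Bl/6 X Sv129) form aggregates and differentiate. There were 2 libraries made with an in-house SCL rabbit anti-serum and 2 input libraries of chromatin with no antibody, from 2 independent differentiations. All groups had the same genotype and day, so no comparison between conditions was possible. The values came from a single pooled peak call with no value for either library, which means that intervals below cover counting error only and that spread between differentiations is not in them.

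SCL is a basic helix-loop-helix factor that binds DNA with an E protein partner at E-boxes and is held in complexes with LMO2, LDB1 and GATA factors, often at part of an E-box placed beside a GATA site. It is required to form blood, and mesoderm that lacks it takes on cardiac properties. The cardiac sarcomere is built from thick filaments of myosin and thin filaments of actin, tropomyosin and troponin, anchored at the Z-disc, while calcium released through the ryanodine receptor starts each contraction and ion channels set the rhythm. Many of these genes are switched on in differentiating cardiomyocytes, which arise from mesoderm after the stage studied here. Some, such as Tpm1, are also transcribed in many other cells.

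FLK1+ identity could not be tested on a binding assay, but the genes of the FLK1 receptor (Kdr), Tal1 itself and its partner Lmo2 had 10, 4 and 3 peaks with highest folds of 183, 127 and 180, whereas Pdgfra, a marker of cardiac and paraxial mesoderm, had 1 peak of fold 8.78. Fold is the authors' enrichment, the number of ChIP fragments at the summit over the local background with 1 added to each. At the 31 peaks the summit held 25 to 375 fragments (median 49) over a background of 2.43 to 11.0 fragments (median 3.14), and the median over all peaks was 53 fragments over 3.67.

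The DNA under the strongest of these peaks is shown first, because the results below refer to its motifs. Each line gives the 101 bp window centred on the summit (genome build mm9), 5′ to 3′, for the 6 peaks of highest fold and for the strongest peak within 1 kb of a TSS. Both Cacna1c windows were added after their values had been seen, since they lay next to start sites. Capitals mark the GATA motif (GATA preceded by A or T and followed by A or G, or its reverse complement), the E-box CAGCTG, and the CTG of the composite motif, in which CTG is followed after 7 to 9 bases by GATA. The windows were chr13:11929129-11929229 on the plus strand (Ryr2, fold 64.6), chr9:58694967-58695067 on the minus strand (Hcn4, fold 51.6), chr6:71210197-71210297 on the minus strand (Smyd1, fold 44.6), chr9:67025680-67025780 on the plus strand (Tpm1, fold 36.98), chr7:4477965-4478065 on the minus strand (Tnni3, fold 30.3), chr14:35398721-35398821 on the plus strand (Ldb3, fold 28.2) and chr1:137697123-137697223 on the minus strand (Tnni1, fold 18.9). The Cacna1c windows, both on the plus strand, were chr6:118708463-118708563 (fold 9.79) and chr6:119146604-119146704 (fold 9.44).
Ryr2: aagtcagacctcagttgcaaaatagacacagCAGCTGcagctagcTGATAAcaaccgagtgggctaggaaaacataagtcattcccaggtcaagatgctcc
Hcn4: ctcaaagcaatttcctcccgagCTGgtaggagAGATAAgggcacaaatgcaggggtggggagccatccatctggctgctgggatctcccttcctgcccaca
Smyd1: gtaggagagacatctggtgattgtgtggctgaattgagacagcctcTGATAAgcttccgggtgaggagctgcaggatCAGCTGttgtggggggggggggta
Tpm1: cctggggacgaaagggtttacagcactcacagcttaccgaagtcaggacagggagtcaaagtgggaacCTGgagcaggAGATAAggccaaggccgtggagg
Tnni3: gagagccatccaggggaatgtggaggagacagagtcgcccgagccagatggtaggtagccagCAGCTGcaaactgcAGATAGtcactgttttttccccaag
Ldb3: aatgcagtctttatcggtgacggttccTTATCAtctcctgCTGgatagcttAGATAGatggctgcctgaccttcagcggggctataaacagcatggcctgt
Tnni1: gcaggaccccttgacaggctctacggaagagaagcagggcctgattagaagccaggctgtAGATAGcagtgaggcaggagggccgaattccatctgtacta
Cacna1c, internal TSS: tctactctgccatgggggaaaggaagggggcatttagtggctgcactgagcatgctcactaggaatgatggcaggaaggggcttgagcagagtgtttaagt
Cacna1c, first TSS: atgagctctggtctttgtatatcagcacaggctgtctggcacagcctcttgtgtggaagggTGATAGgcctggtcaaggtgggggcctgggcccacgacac

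The windows of Ryr2, Hcn4, Tpm1, Tnni3 and Ldb3 each held the composite, with 9, 8, 8, 9 and 9 bases between CTG and GATA. In those of Ryr2 and Tnni3, the CTG was the end of a CAGCTG. The Smyd1 window held a GATA motif and a CAGCTG but no composite. The Tnni1 window and the second Cacna1c window held a GATA motif alone among these, and the first Cacna1c window held neither motif.

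Across the 32 genes, 16 (50%, Wilson 95% confidence interval 33.6 to 66.4%) had at least 1 peak, beside 29.0% of all 22238 protein-coding genes. There were 11 genes with 1 peak, Cacna1c had 2, and 4 genes (12.5%, beside 6.59% of all genes) had 3 or more. These 4, Tpm1 with 7 peaks, Ryr2 with 5, and Hcn4 and Tnni1 with 3 each, held 18 of the 31 peaks. In all, 7 of the 32 genes (21.9%) had a peak of fold 20 or more, beside 10.7% of all genes. Genes differ in how much DNA lies closer to their TSSs than to those of any other gene, here called the territory, and its median was 49.5 kb for the 32 genes and 45.5 kb for all genes. Per Mb of territory there were 5.64 peaks (Poisson 95% interval 3.83 to 8.0) at the cardiac genes and 5.04 (4.95 to 5.12) over all genes, so that the interval of the former took in the latter. The value was 4.52 without Tpm1 and 6.69 without Nebl, the extremes when each gene was left out in turn.

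Peak strength was ordinary. The median fold of the 31 peaks was 9.44 (95% interval 8.16 to 18.9) against 11.1 for all peaks, and 19 of the 31 lay below that value. A fold of 10 or more was reached by 13 peaks (41.9%, beside 56.6% of all peaks). A fold of 20 or more was reached by 8 peaks (25.8%, beside 25.1% of all peaks) and a fold of 50 or more by 2 (6.45%, beside 7.26%). No difference between these peaks and the rest was tested, since the list holds no replicate values.

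**Figure D1:**
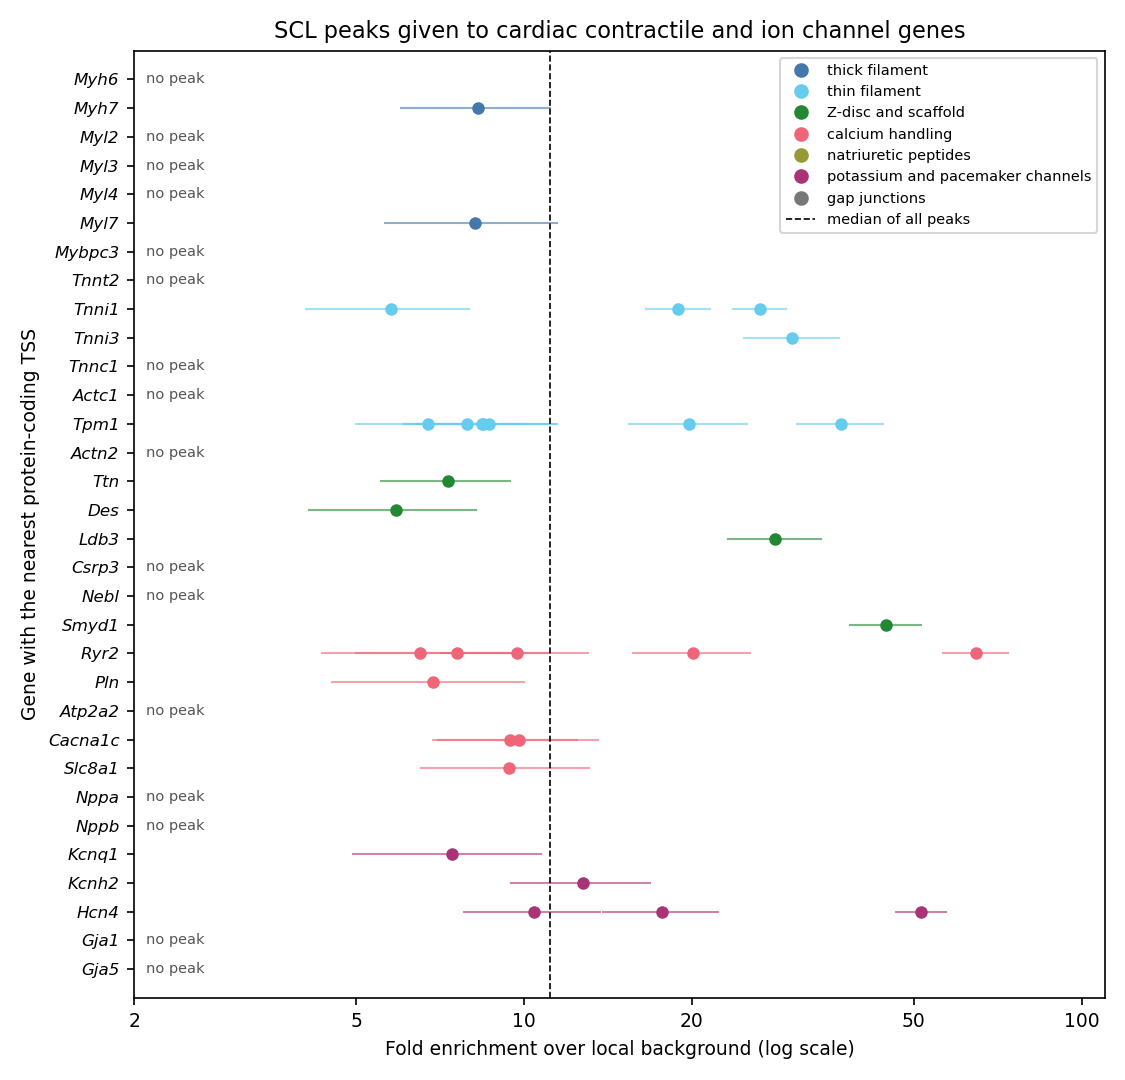
Fold enrichment (log axis) of each SCL peak given to the 32 cardiac genes, 1 row per gene coloured by role, with lines for the Poisson 95% interval of the fragment count and a dashed line at the median of all peaks (11.1). Peaks of Ryr2, Hcn4, Smyd1, Tpm1, Tnni3, Ldb3 and Tnni1 pass a fold of 20, while 16 genes have no peak.

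The genes of the thick filament had 2 peaks at 2 of 7 genes, a share close to the 29.0% of all protein-coding genes, and 10.1 peaks per Mb of territory (5.74 without Myh7 and 5.40 without Myl7). Myh7, the slow β-myosin heavy chain of the fetal ventricle, had a peak of fold 8.28 (interval 6.02 to 11.1) at 7.92 kb upstream of its TSS, between genes. Myl7, the atrial regulatory light chain and an early marker of cardiomyocytes, had a peak of fold 8.16 (5.63 to 11.5) at 5.69 kb downstream of its TSS and beyond the end of the gene. Both folds were below the median of all peaks. No peak was given to Myh6 (α-myosin heavy chain), Myl2 and Myl3 (ventricular light chains), Myl4 (atrial essential light chain) or Mybpc3 (cardiac myosin-binding protein C). Myh6 lies next to Myh7, and the summit nearest to its TSS, 35.6 kb away, was the Myh7 peak.

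At the thin filament, 3 of 6 genes (beside 29.0% of all genes) carried 11 peaks, 7 of them at Tpm1. The density of 34.2 peaks per Mb of territory was the highest of the role groups, and it remained so without Tpm1 (29.1) or without Tnni1 (28.0). Tpm1, the main tropomyosin of the cardiac thin filament and a gene transcribed in many other cells, had 7 peaks with folds of 6.72, 7.92, 8.43, 8.44, 8.67, 19.8 and 36.98. The strongest (chr9:67025587-67025915) lay between genes at 128.5 kb upstream of Tpm1, and the TSS of Tln2 was only somewhat farther from it, at 149.7 kb. The peak of fold 19.8 lay 19.1 kb downstream of a Tpm1 TSS, past the end of the gene, and only the peak of fold 8.43 was inside it, in an intron. The other 4 lay 28.4 to 66.7 kb upstream.

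Tnni3, cardiac troponin I, had a single peak of fold 30.3 (24.8 to 36.7) at chr7:4477658-4478211, 2.18 kb upstream of its TSS and within an intron of the neighbouring gene 6030429G01Rik, whose own TSS was 6.04 kb away. Tnni1, the slow skeletal troponin I that the embryonic heart uses before Tnni3, had 3 peaks of folds 26.5, 18.9 and 5.77. All 3 lay in introns of Tnni1, which has several TSSs, at 4.55 kb upstream, 763 bp downstream and 5.27 kb downstream of the nearest of them. The 2 stronger Tnni1 peaks had 317 and 226 fragments, more than all other peaks of the set but that of Hcn4, over a background of 11.0 fragments that was the highest of the set. The third was also the summit nearest to Tnnt2, cardiac troponin T, at 30.5 kb. Tnnt2, Tnnc1 (cardiac troponin C) and Actc1 (cardiac α-actin) had no peak.

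Of the Z-disc and scaffold genes, 4 of 7 (beside 29.0% of all genes) had 1 peak each, at 2.92 peaks per Mb of territory beside 5.04 over all genes. Without Nebl, whose territory is the largest of the group, the density was 7.94, above that of all genes. Smyd1, a muscle methyltransferase needed for sarcomere assembly, had the strongest with 44.6 (38.5 to 51.5), in an intron at 1.98 kb downstream of a TSS (chr6:71209863-71210479). Ldb3, a Z-disc PDZ-LIM protein, followed with 28.2 (23.2 to 34.0), in an intron at 3.02 kb downstream of a TSS (chr14:35398586-35398978). The peaks of Ttn (titin, the sarcomere's molecular spring) and Des (desmin, the intermediate filament of muscle) had folds of 7.30 and 5.89. That of Ttn lay in a Ttn intron at 3.67 kb downstream of an internal TSS, far from the start of the gene. The Des peak lay 15.9 kb upstream between genes. The intervals of the stronger pair did not overlap those of the weaker pair, 5.54 to 9.44 for Ttn and 4.11 to 8.21 for Des. Actn2 (α-actinin), Csrp3 (muscle LIM protein) and Nebl (nebulette) had none.

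Calcium handling genes had 9 peaks at 4 of 5 genes (beside 29.0% of all genes), at 3.24 peaks per Mb of territory beside 5.04 over all genes. Ryr2, the calcium release channel of the cardiac sarcoplasmic reticulum, carried the strongest peak of the whole set, with a fold of 64.6 (56.4 to 73.7) from 221 fragments over 2.43. It lay in a Ryr2 intron (chr13:11928865-11929330), 270.0 kb downstream of the TSS, and ranked 583 among the 12885 peaks. Its 4 other peaks had folds of 20.1, 9.73, 7.57 and 6.52, of which the first 3 were in introns at 520.7, 76.2 and 286.2 kb downstream and the last lay 25.4 kb upstream. The peak of fold 7.57 was 16.2 kb from the strongest summit.

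Cacna1c, the pore subunit of the L-type calcium channel, had 2 peaks, and both lay directly upstream of start sites: one 521 bp from an internal TSS and the other 405 bp from the TSS at the start of the gene. Their folds, 9.79 (6.87 to 13.6) and 9.44 (7.01 to 12.5), had overlapping intervals. The first (chr6:118708398-118708915) was inside Cacna1c and the second (chr6:119146442-119146805) in an intron of Dcp1b, whose TSS was 3.83 kb away. Slc8a1, the sodium-calcium exchanger, had a peak of fold 9.39 that lay 439.9 kb upstream in a gene-poor region. Pln, phospholamban, the inhibitor of the calcium pump, had one of fold 6.86 at 71.8 kb upstream, nearly as close to Gm10942 (76.1 kb). No peak was given to Atp2a2, the calcium pump itself, and the nearest summit was 105 kb from its TSS.

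All 3 channels of potassium and pacemaker currents had a peak (beside 29.0% of all genes), 5 peaks in total at 10.9 per Mb of territory (6.41 without Hcn4). Hcn4, the pacemaker channel of the sinoatrial node and an early marker of cardiac progenitors, had 3, with folds of 51.6 (46.5 to 57.1), 17.7 (13.9 to 22.3) and 10.4 (7.80 to 13.7). The first (chr9:58694732-58696015) was the widest peak of the set at 1284 bp and held the most fragments, 375. It lay in an Hcn4 intron 23.7 kb downstream of the TSS, the next in an intron at 33.8 kb, 10.1 kb from the first, and the last between genes at 20.6 kb upstream. Kcnh2, the rapid delayed rectifier channel, had an intron peak of fold 12.7 at 7.99 kb downstream. Kcnq1, the slow delayed rectifier channel, had an intron peak of fold 7.42 at 139.9 kb downstream of an internal TSS, and farther from the start of the gene.

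Neither natriuretic peptide gene (Nppa and Nppb, hormones of the stretched heart) nor either gap junction gene (Gja1 and Gja5, connexins that couple cardiomyocytes electrically) was given a peak. The Gja1 TSS was 812 kb from any summit, the farthest of all 32 genes.

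The 16 genes without a peak were thus not all far from SCL. Their TSSs lay 1.17 to 812 kb from the nearest summit (median 40.8 kb), with 2 genes within 20 kb, 9 within 50 kb and 11 within 100 kb. Tnnc1 was closest, with a summit of fold 12.3 at 1.17 kb that was given to its neighbour Stab1. That distance was to the start of a long non-coding transcript of Tnnc1 (retained intron), and from the start of its coding transcript (CCDS) the nearest summit, of fold 4.69, was 9.73 kb away, a check added after the values were seen. Myl3 came next at 10.5 kb (given to Pth1r) and Mybpc3 after it at 21.4 kb, from a summit of fold 43.5 given to Sfpi1, the gene of the blood factor PU.1. At the other end were Actn2 (208 kb), Nebl (254 kb) and Actc1 (443 kb). The genes without a peak had smaller territories than those with one (median 43.9 against 128 kb) and were shorter (median 18 against 34.7 kb). The part that territory played in which genes received a peak was not tested.

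Position within the locus was close to that of SCL peaks in general. Only 3 of the 31 peaks (9.68%, interval 3.35 to 24.9%) lay within 1 kb of a TSS, beside 7.59% of all peaks, and these were the 2 of Cacna1c and 1 of Tnni1. In contrast, 11 (35.5%) lay more than 50 kb away, beside 32.5% of all peaks. The share within 1 kb depended on the setting. It was 3.33% with one TSS for each gene, and 24% when summits had to lie in the gene or within 10 kb of it. The median distance was 20.6 kb, and 24.1 kb over all peaks. There were 15 summits upstream and 16 downstream of the nearest TSS. Introns held 18 (58.1%, beside 42.4% of all peaks), and 13 were intergenic (41.9%, beside 54.1%). None was exonic, beside 445 of all 12885 peaks. For 12 of the 31, another gene's TSS lay within 2 times the distance to the member's, so that the choice of gene was close at these. The share of all peaks with so close a choice is not given.

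**Figure D2:**
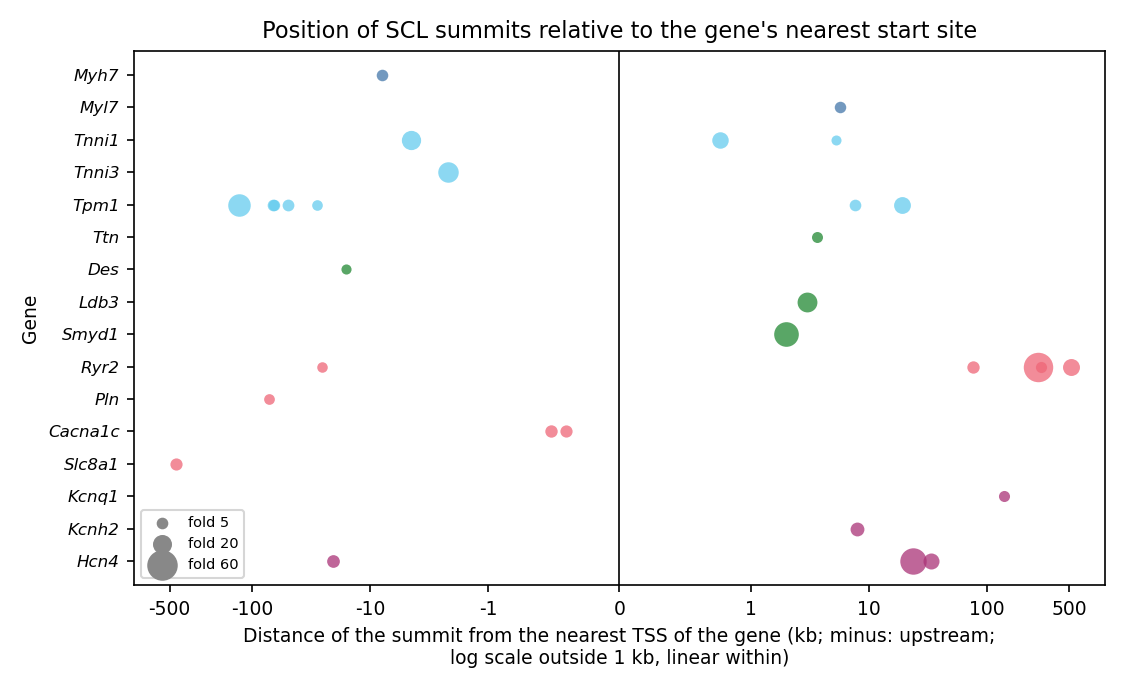
Signed distance in kb from each summit to the nearest TSS of its gene (log scale beyond 1 kb on either side, minus values upstream), 1 row per gene with a peak, with dot area growing with fold. The 3 summits within 1 kb are those of Cacna1c and Tnni1, and the strong Ryr2 and Tpm1 peaks lie more than 100 kb from a TSS.

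Motifs were counted on both strands in the 101 bp summit windows. A match describes the letters of the window and is not evidence of a bound site. The GATA motif was in 25 of the 31 windows (80.6%, interval 63.7 to 90.8%), beside 73.2% of all peaks. It was in 6 of 62 windows taken 1 kb to either side of the same summits (9.68%), beside 17.8% of such flanking windows over all peaks. An E-box, CANNTG, was in 17 (54.8%, beside 52.6% of all peaks), and it was also in 24 of the 62 flanking windows (38.7%, beside 42.4% over all peaks). The form CAGCTG, which is itself an E-box, was in 5 (16.1%, beside 14.1%). The composite, which shares the letters of the GATA motif, was in 10 (32.3%, interval 18.6 to 49.9%), beside 32.9% of all peaks. It was in 2 of the 62 flanking windows (3.23%, beside 3.07% over all peaks). In 14 windows GATA and an E-box occurred together, and 3 had neither of them nor the composite. The shares of all peaks for these combinations are not given.

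The composite was more frequent at strong peaks, within the set as in the whole list. Of the 8 peaks of fold 20 or more, 5 held it and 7 held GATA, where 43.6% and 83.2% of all peaks of that strength did. Of the 18 peaks of fold under 10, 3 held the composite and 13 held GATA, where 25.8% and 65.3% of all peaks did. The single strong peak without GATA was that of Tnni1 with fold 26.5, which held an E-box and an ETS motif. The Ryr2 peak of fold 7.57 and the Ttn and Kcnq1 peaks were the weak ones with a composite.

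Other motifs of factors known for cardiac and muscle genes were in few of these windows, as in few of all peaks, while the GATA motif counted above is also that of the cardiac GATA factors. The T-box motif AGGTGT was in 2 windows (6.45%, beside 5.69% of all peaks), the intron peaks of Hcn4 with fold 17.7 and of Kcnh2. The NKX2-5 motif TNAAGTG was in 1 (3.23%, beside 516 of all 12885 peaks), the upstream peak of Hcn4. The MEF2 motif was in 0 of 31, which allows a share of up to 9.68% by the limit of 3 counts and 11.0% by the Wilson interval, beside 0.194% of all peaks, and the CArG box of serum response factor in 1 (beside 0.217%), the distant Slc8a1 peak. Among motifs of blood and endothelial factors, the ETS motif AGGAAG was in 8 (25.8%, beside 28.5%) and the RUNX motif TGTGGT in 2 (6.45%, beside 9.56%), at Slc8a1 and Tpm1.

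**Figure D3:**
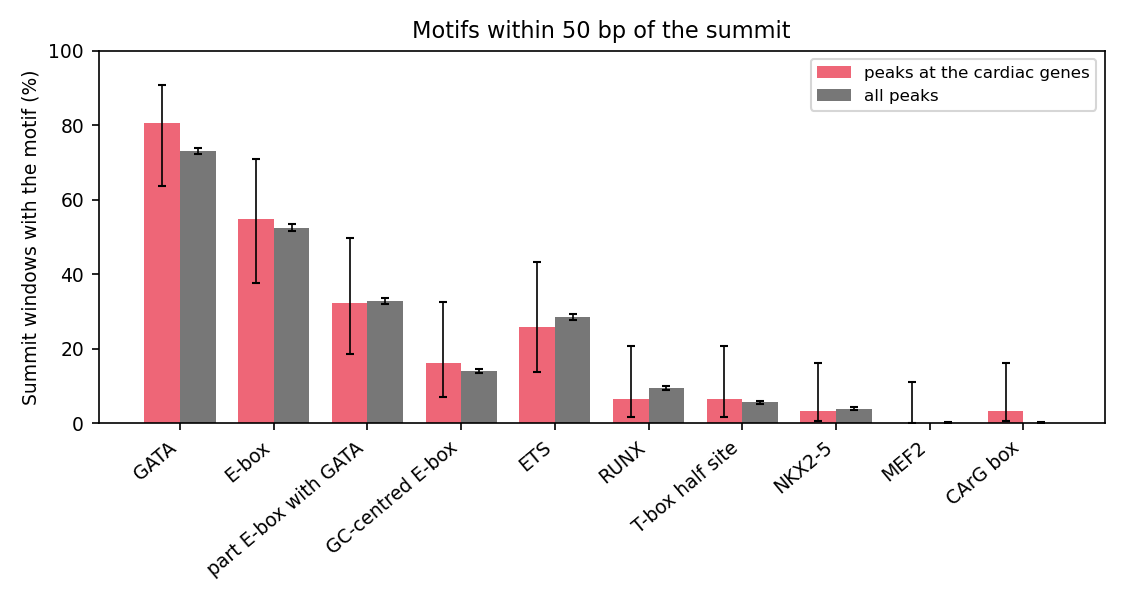
Percentage of 101 bp summit windows with each motif among the 31 peaks at the cardiac genes and among all 12885 peaks, with Wilson 95% intervals (the bar for part of an E-box with GATA is the composite, and the GC-centred E-box is CAGCTG). The interval of the cardiac genes takes in the value of all peaks for every motif but the CArG box, which rests on 1 window.

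For comparison, the regulators of the heart were counted in the same way. This list was chosen with earlier results of these data known, and it holds genes that the paper reports as direct SCL targets. Its share and density of peaks are therefore descriptions and no independent evidence. Of 28 genes of cardiac transcriptional regulators, 23 (82.1%, interval 64.4 to 92.1%, beside 29.0% of all genes) had a peak, with a mean of 3.11 ± 3.11 peaks per gene (SD over genes), whereas the 32 effector genes had 0.969 ± 1.58. The means were closer, 1.14 and 0.781, when a summit had to lie inside the gene or within 10 kb of it. The regulators with most peaks were Tbx3 (11), Foxc2 (10), Tead1 (7) and Tbx5 (7). The median territory of the 28 regulators, 217 kb, was larger than the 49.5 kb of the effectors. Per Mb of territory the regulators had 11.3 peaks (9.05 to 13.9), and this interval lay above that of the effectors, 3.83 to 8.0. Many regulator peaks were remote: 48 of 87 (55.2%) lay more than 50 kb from the TSS, beside 35.5% at the effectors and 32.5% of all peaks. With TSSs of long intergenic non-coding and processed-transcript genes added, the mean was 2.18 peaks per regulator and 0.938 per effector. A peak of fold 20 or more was found at 14 of 28 regulators and at 7 of 32 effectors, beside 10.7% of all genes. Single peaks were of similar strength, with a median fold of 9.85 at the regulators and 9.44 at the effectors.

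A further 44 cardiac effector genes that were not in the set gave similar values, with 19 (43.2%, beside 29.0% of all genes) having a peak, a mean of 0.886 ± 1.26 per gene and 4.27 peaks per Mb (3.03 to 5.83). Kcnj5 and Rbm20 had 4 each. Among 30 effector genes of skeletal and smooth muscle, 8 (26.7%, interval 14.2 to 44.4%, beside 29.0% of all genes) had a peak, each with 1 peak except Smtn with 2, at 5.58 peaks per Mb (2.55 to 10.6). By comparison, 28 of 32 effector genes of blood and endothelium (87.5%, beside 29.0%) had one, at 21.2 peaks per Mb (16.9 to 26.3), and Kdr and Cdh5 had 10 each. Such intervals treat peaks as independent, and no difference between lists was tested. All lists were chosen with earlier results of these data known.

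**Figure D4:**
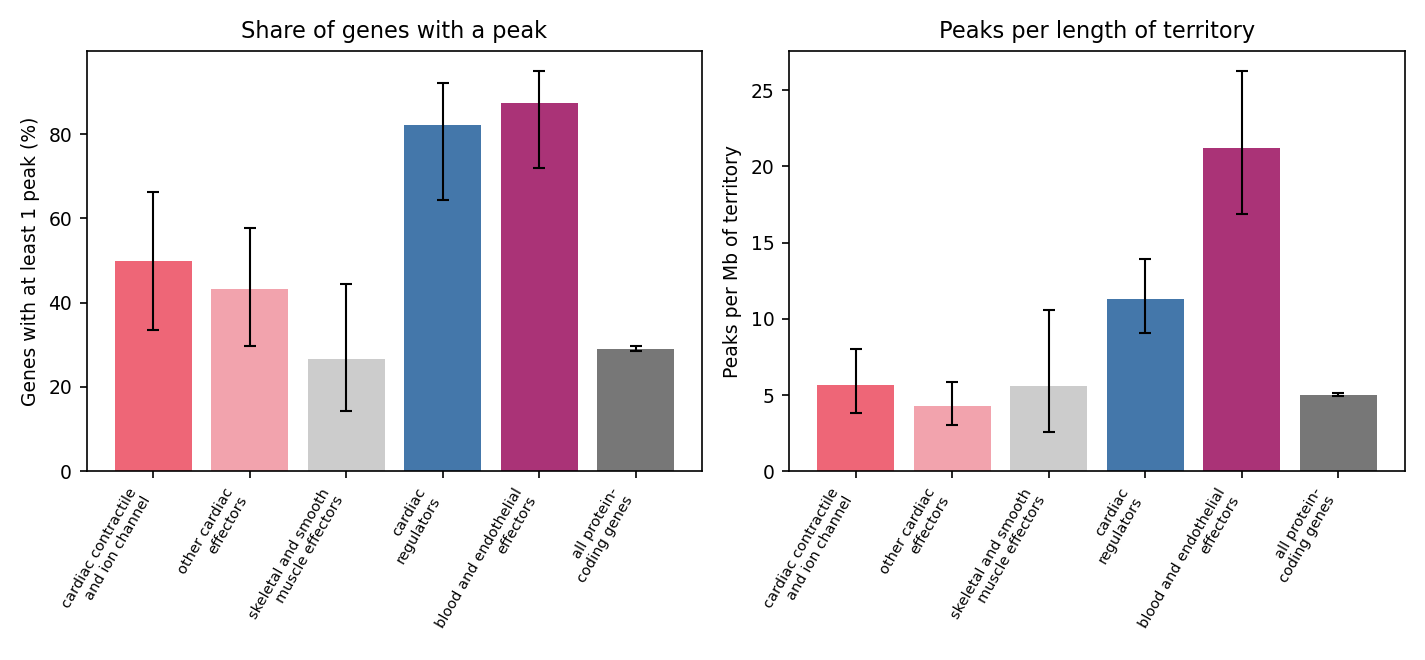
Left, percentage of genes with at least 1 SCL peak (Wilson 95% interval); right, peaks per Mb of territory (Poisson 95% interval), for 5 gene lists and all protein-coding genes. The cardiac contractile and ion channel genes stand at 50% and 5.64 peaks per Mb, below cardiac regulators (82.1%, 11.3) and blood and endothelial effectors (87.5%, 21.2).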

How the data were processed

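Paired-end reads were aligned to mm9 with Bowtie 1.1.2 and peaks were called with MACS2 2.0.10, as the submitters' processing notes give. Duplicate reads were removed by the authors, who merged the replicates before the peak call and kept reproducible peaks by the irreproducible discovery rate. Fold enrichment, a ratio, was taken as deposited. The −log10 p and −log10 q were likewise deposited by the authors from MACS2, and the lowest −log10 q in the list was 12.8. The deposited score of each peak was 10 times its −log10 p in 100% of peaks and was not used. Depth per library is not given in the sources used here.

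The deposited fold and −log10 p were solved together for the fragment count (pileup) and the background at each summit, which matched −log10 p to within 0.001 in 99.9% of peaks, and the solver was tested on simulated data. Summits were given to the nearest of 69976 TSSs of 22238 protein-coding gene symbols in GENCODE vM1 (NCBIM37, the build of mm9). Of 166 list genes, 164 matched by symbol and 2 through an older symbol in RefSeq. Motifs were searched within 50 bp of the summit. Fold intervals are exact Poisson intervals of the pileup at a fixed background. Python 3.11.15, pandas 2.3.3, scipy 1.17.1 and pysam 0.24.0 were used.

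The genes, their roles and the comparison lists were chosen with earlier results of these data known, and no test was made on them. All 32 genes were accounted for. Sequences were shown for the 6 strongest peaks and the strongest within 1 kb of a TSS, and from other lists at most 4 genes were named, those with most peaks. Alternatives covered the TSS set, one TSS per gene, distance limits, fold and q limits, background, merging of peaks and the motif window. A few neighbouring or comparison genes are not reported here.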

Additional observations from a re-analysis of the deposited data

How the results depend on the processing

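Of 50 values recomputed under other settings, 37 stayed within limits (1.5 times for counts and means per gene, the 95% interval for shares and the median fold) and 13 moved. The interval of the share within 1 kb of a TSS is wide, so that 24% of peaks, when summits had to lie in the gene or within 10 kb of it, was within it. With a fold of at least 10, 13 of the 31 peaks (41.9%, beside 56.6% of all peaks) remained, at 8 of the 32 genes. Their median fold was 26.5, and 53.8% held the composite. With a −log10 q of at least 50, there were 11 peaks at 7 genes, a median fold of 28.2 and the composite in 54.5%. Over all peaks, 43.6% of those with a fold of 20 or more held the composite. Under these fold and q limits, the share of all genes and the composite share of all peaks are not given. With one TSS for each gene, 3.33% of peaks lay within 1 kb of it, and within 5 kb of any TSS there were 25.8%. The mean number of peaks per cardiac regulator was 1.14 when summits had to lie in the gene or within 10 kb of it, 1.43 with a fold of at least 10 and 1.18 with a −log10 q of at least 50, beside 0.781, 0.406 and 0.344 per effector gene. Under these settings, the mean of the regulators stayed above that of the effectors by 1.46, 3.52 and 3.43 times, beside 3.21 times in the values reported. No paired analysis was possible because values were deposited for the merged libraries alone, and leaving out each replicate was not run for the same reason. The smallest fragment count at a summit of the 31 peaks was 25, and a gene without a peak may have binding that was not detectable at this depth.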
